A study of Mus musculus with 7 samples.

Results

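De novo fatty acid synthesis in beta cells of prematurely weaned and suckling mice is described here through 10 genes: Acly, Acaca, Fasn, Elovl6, Scd1, Scd2, Fads1, Fads2, Me1 and Srebf1. They were grouped by their function in the pathway, with earlier results of these data known. All 10 had at least 1 probe set whose annotation names that gene and no other, out of 19938 genes measured, and together they had 12 such probe sets. Cells came from P25 mice of the outbred ICR strain that carry insulin-Cre and Rosa26-LSL-YFP, in which a Cre transgene driven by an insulin promoter turns on a yellow reporter in cells that make, or once made, insulin. Both groups carry the same alleles. The weaned group is 3 mice taken from the mother at day 18, and the suckling group is 4 mice still with her at day 25, the age at which all 7 were studied. Between 2000 and 6000 reporter-positive cells were sorted from each mouse, and each mouse gave 1 Affymetrix array.

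The pathway turns surplus glucose carbon into fat. ATP citrate lyase (Acly) splits citrate exported from mitochondria into acetyl-CoA, acetyl-CoA carboxylase (Acaca) makes malonyl-CoA, and fatty acid synthase (Fasn) joins these units into palmitate with NADPH that comes in part from malic enzyme (Me1). Elovl6 lengthens palmitate to stearate, the stearoyl-CoA desaturases Scd1 and Scd2 introduce the first double bond, and the fatty acid desaturases Fads2 and Fads1 act in turn on dietary polyunsaturated fatty acids. Srebf1 encodes SREBP-1, a transcription factor that insulin activates and that drives most of these genes in liver. In rodent liver the pathway is known to be low on fat-rich milk and to rise once pups eat a carbohydrate-rich diet. In beta cells malonyl-CoA is also regarded as a signal that links glucose use to fatty acid oxidation.

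None of the 10 genes differed between the groups by a margin that passed limma's test at a Benjamini-Hochberg adjusted p of 0.05, taken over the whole array. The lowest adjusted p was 0.623, and of all genes tested 0.015% passed. Acly was lower in weaned mice by 0.35 log2 units and Fads2 higher by 0.48, and these were the only members with an unadjusted p under 0.05, a mark that 7.58% of all genes reached, 4.39% with a higher and 3.19% with a lower level in weaned mice. In Acly and Acaca the arrays of the groups did not overlap, which held for 7.32% of all genes. On average 6 of the 10 members were higher in weaned mice, as were 50.1% of all genes, and 4 were lower, with a median difference of 0.085 log2 units beside 0.00047 over all genes. Under the alternatives 5 to 7 members were higher and that median was 0.030 to 0.12. The median of all genes moved as well. With arrays centred on their medians it was 0.035, beside 0.12 for the members. With only genes above the median level kept it was 0.038, above the 0.030 of the 9 members left.

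**Figure D1:**
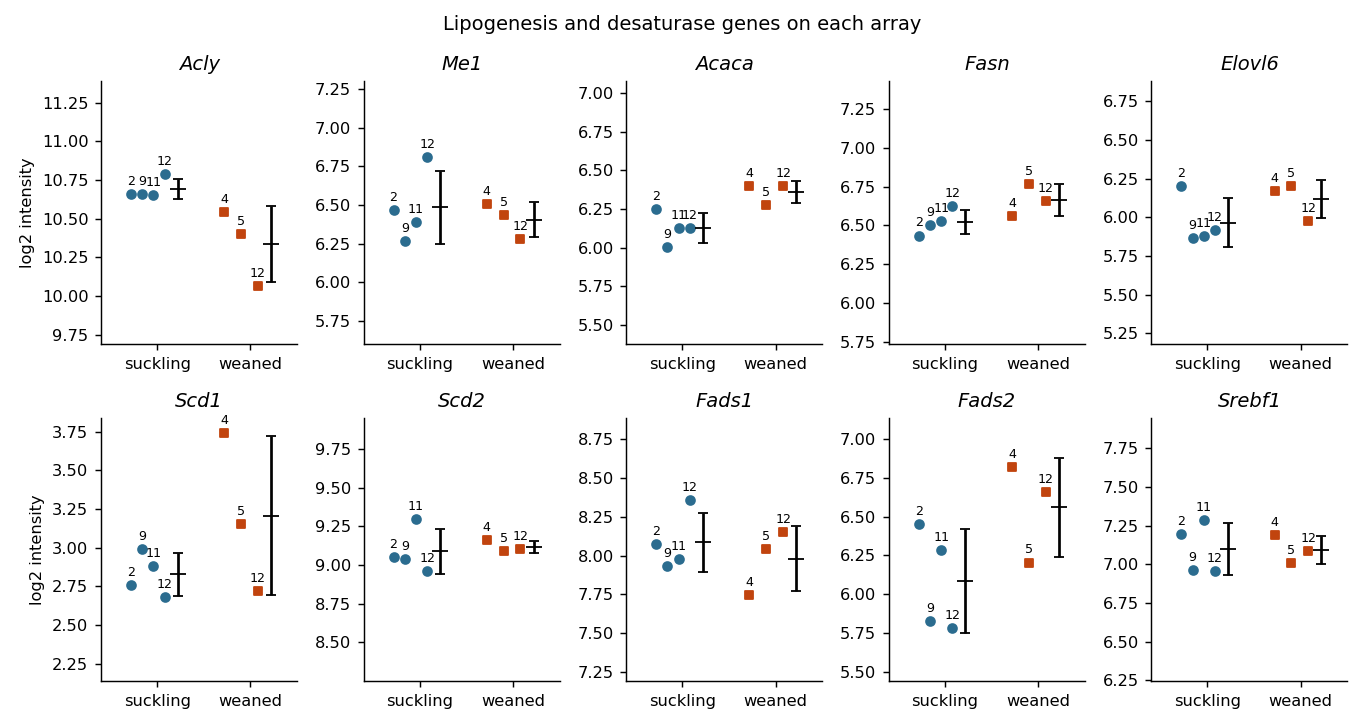
Log2 intensity of the 10 genes on each array, with 4 suckling mice as circles and 3 weaned mice as squares, each marked with its replicate number, and the mean and SD of each group as a bar. Every panel spans the same range of log2 units. The weaned arrays lie below all suckling arrays for Acly and above them for Acaca, and the groups overlap for the other 8 genes.

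The depth of these data is limited by the number of arrays. The median intensity was 14.1 to 14.9 per array, and across genes, which are not independent replicates, arrays correlated at 0.984 to 0.988 within a group and at 0.980 to 0.988 between groups. All 9 beta cell markers measured lay above a dim reference, the 95th percentile of olfactory receptor genes (3.27 log2 units), on every array. Ucn3 read 10.31 to 10.69 log2 units and Iapp 12.43 to 12.58. The insulin gene Ins2 read 8.06 to 8.52 and Mafa 5.57 to 6.06. The glucagon gene Gcg (11.73 to 12.32) and the somatostatin gene Sst (11.46 to 12.22) were bright too. So were the other endocrine markers Ppy (10.73 to 11.94), Pyy (11.35 to 12.13) and Ttr (10.29 to 10.78). Irx2, a factor of alpha cells, read 4.59 to 5.29 and Hhex, a factor of delta cells, 3.04 to 4.30. The source of the hormone signal was not tested. Acinar markers varied most, with a list mean of 3.89 to 6.05 in weaned and 4.31 to 7.71 in suckling mice, and suckling replicates 2 and 9 had the highest values. All 18 acinar markers measured were lower on average in weaned mice (1 turned higher with quantile normalization or median centring), and none passed by limma (3 at an unadjusted p under 0.05). Every weaned array has the code L13 in its description and every suckling array L14, and whatever these codes mean cannot be told apart from the feeding group.

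Promoter sequences are shown for 3 genes: Acly and Fads2, whose differences point in opposite directions, and Fasn, the synthase itself. The RefSeq promoter table (GRCm38.p6) matched 7 of the 10 members, with 10 windows of 300 bases that run from 250 bases before a transcript start to 50 after it. Scd1, Scd2 and Fads1 were not matched. Each sequence is given 5′ to 3′ on the strand of the gene, with capitals for matches on either strand to the CCAAT box (CCAAT), the GC box (GGGCGG), the sterol regulatory element (TCACNCCAC) or the E-box (CACGTG). The windows lie at chr11:100527951-100528250 (minus strand) for Acly, chr11:120824498-120824797 (minus strand) for Fasn and chr19:10101454-10101753 (minus strand) for Fads2.
Acly: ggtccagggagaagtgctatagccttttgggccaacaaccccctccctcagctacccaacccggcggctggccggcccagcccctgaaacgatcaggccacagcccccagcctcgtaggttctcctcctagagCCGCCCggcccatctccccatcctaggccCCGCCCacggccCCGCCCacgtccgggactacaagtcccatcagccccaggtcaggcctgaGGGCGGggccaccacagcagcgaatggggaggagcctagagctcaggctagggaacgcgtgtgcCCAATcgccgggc
Fasn: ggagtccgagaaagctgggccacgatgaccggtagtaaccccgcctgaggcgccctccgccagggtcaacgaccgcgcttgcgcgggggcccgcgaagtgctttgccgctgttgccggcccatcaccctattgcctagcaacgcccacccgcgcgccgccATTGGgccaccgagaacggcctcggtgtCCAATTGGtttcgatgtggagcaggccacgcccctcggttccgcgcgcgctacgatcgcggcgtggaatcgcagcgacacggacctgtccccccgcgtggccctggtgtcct
Fads2: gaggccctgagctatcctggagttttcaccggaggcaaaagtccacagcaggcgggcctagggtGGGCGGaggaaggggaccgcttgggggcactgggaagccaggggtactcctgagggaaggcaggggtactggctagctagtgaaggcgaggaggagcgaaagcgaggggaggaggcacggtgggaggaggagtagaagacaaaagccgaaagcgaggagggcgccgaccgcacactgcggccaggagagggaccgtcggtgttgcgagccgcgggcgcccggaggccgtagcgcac

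The Acly window holds 4 GC boxes, which are sites of the SP1 family, at 117, 88, 76 and 27 bases before the start, and a CCAAT box 37 bases after it. The Fasn window holds 3 CCAAT boxes, the motif of the factor NF-Y, at 90, 62 and 59 bases before the start, of which the last 2 overlap on opposite strands, and no GC box. The Fads2 window holds a single GC box 186 bases before the start. Over the 10 windows of the members 5 hold a CCAAT box and 5 a GC box, where 37.4% and 35.7% of all 32851 windows do. The sterol regulatory element, bound by SREBP proteins, was found in 0 of the 10 windows and in 1.24% of all, and the E-box in 0 of the 10 and 7.15% of all. A match is a run of letters in this window and says nothing of binding, and these windows are too short to hold elements farther away.

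Acly, at the entry to the pathway, gave strong signal in all mice and was lower in every weaned one, without passing the test. Its level (probe set 10391146) was 10.54, 10.40 and 10.07 log2 units in weaned replicates 4, 5 and 12, and 10.66, 10.66, 10.66 and 10.79 in suckling replicates 2, 9, 11 and 12. The 4 suckling mice were close together, every weaned mouse was below them, and weaned replicate 12 was farthest away. The means were 10.34 ± 0.25 (SD, n = 3) and 10.69 ± 0.06 (SD, n = 4). The difference was -0.35 log2 units (SE 0.13, 95% interval -0.65 to -0.06, unadjusted p = 0.0249 and adjusted p = 0.623 by limma), a 1.28-fold lower level. It was -0.22 without weaned replicate 12, with an unadjusted p of 0.104. With the acinar markers as a covariate the difference was -0.44 (unadjusted p = 0.0170), and without suckling replicates 2 and 9, an alternative added with the data in view, it was -0.38 (unadjusted p = 0.0680, limma).

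Me1, a cytosolic source of NADPH, was read by 2 probe sets that did not separate the groups. The brighter probe set (10405753) gave 6.51, 6.43 and 6.28 log2 units in weaned replicates 4, 5 and 12, and 6.47, 6.27, 6.39 and 6.81 in suckling replicates 2, 9, 11 and 12. Suckling replicate 12 was the highest mouse and the others shared a narrow range. The difference was -0.08 (SE 0.15, interval -0.40 to 0.25, adjusted p = 0.934 by limma), and the other probe set (10595480) also differed by -0.08 (SE 0.15).

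Acaca, which makes the malonyl-CoA that commits carbon to fat, was higher in every weaned mouse without passing the test. Its brighter probe set (10394538) read 6.40, 6.28 and 6.40 log2 units in weaned replicates 4, 5 and 12, against 6.25, 6.01, 6.13 and 6.13 in suckling replicates 2, 9, 11 and 12. The gap between the lowest weaned and the highest suckling mouse, weaned replicate 5 and suckling replicate 2, was narrow. The means were 6.36 ± 0.07 (SD, n = 3) and 6.13 ± 0.10 (SD, n = 4), a difference of 0.23 (SE 0.11, interval -0.01 to 0.47, adjusted p = 0.672 by limma). The dimmer probe set (10379820) gave 4.84, 4.54 and 4.57 in the weaned mice and 4.01, 4.22, 4.33 and 4.34 in the suckling mice, in the same order of replicates. Its groups did not overlap either, and in a fit over all single-gene probe sets its difference was 0.42 (SE 0.13, unadjusted p = 0.00933, adjusted p = 0.555 by limma). The probe sets thus pointed the same way with different sizes, and the mean of both gave 0.33. The sister gene Acacb, whose product sits at the mitochondrial surface and restrains fatty acid oxidation, lay just above the dim reference at 3.38 to 3.81 and differed by -0.11 (SE 0.12).

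Fasn was close to level between the groups. It read 6.56, 6.77 and 6.65 log2 units in weaned replicates 4, 5 and 12, and 6.43, 6.50, 6.53 and 6.62 in suckling replicates 2, 9, 11 and 12. Weaned replicates 5 and 12 were the highest arrays, and weaned replicate 4 lay inside the suckling range. The difference was 0.14 (SE 0.11, adjusted p = 0.808 by limma), and its interval allows a weaned level between 0.931 and 1.30 times the suckling level. The difference was 0.086 without weaned replicate 5, the highest array.

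**Figure D2:**
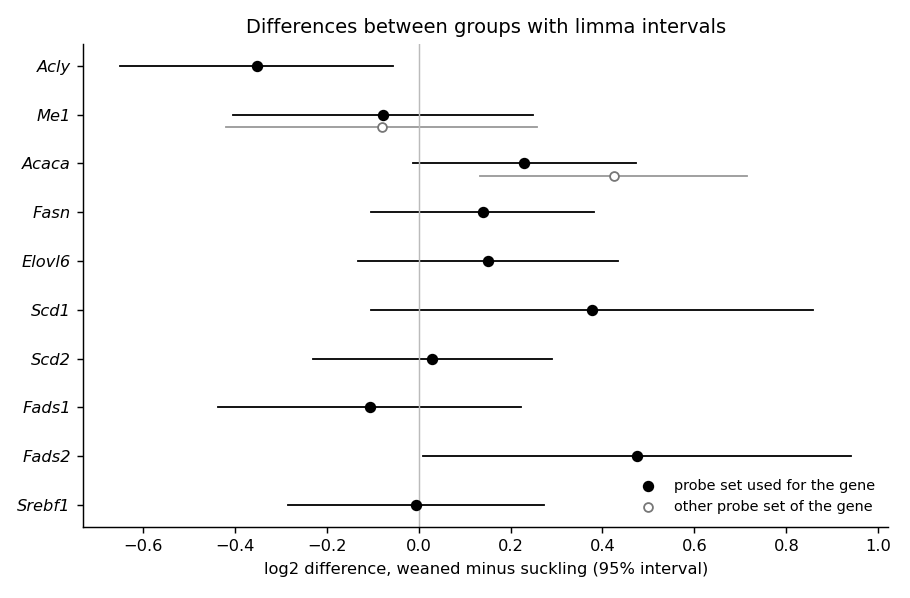
Log2 difference between weaned and suckling mice (weaned minus suckling, x axis) for the 10 genes, with limma's 95% interval; filled points are the probe set that stands for the gene and open points the second probe set of Acaca and Me1. The intervals of Acly (-0.65 to -0.06) and Fads2 (0.01 to 0.94) leave out 0 before adjustment, as does that of the dimmer Acaca probe set, and all others include 0. Open points come from a separate fit over all single-gene probe sets. In that fit the Fads2 interval was -0.00097 to 0.95, which includes 0.

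Elovl6, the elongase that follows Fasn, had overlapping groups. It read 6.17, 6.20 and 5.98 log2 units in weaned replicates 4, 5 and 12, and 6.20, 5.86, 5.88 and 5.92 in suckling replicates 2, 9, 11 and 12. Suckling replicate 2 stood at the level of the higher weaned mice, and the other 3 suckling mice lay below every weaned one. The difference was 0.15 (SE 0.13, interval -0.13 to 0.43, adjusted p = 0.827 by limma).

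The stearoyl-CoA desaturases, which convert stearate to oleate, differed in whether they stood above a dim reference. This reference, chosen after the data were seen, is 1015 olfactory receptor genes, which most tissues outside the nose do not transcribe. Their mean levels had a median of 2.09 log2 units and a 95th percentile of 3.27. Scd1, the main isoform of liver and fat, read 3.74, 3.15 and 2.72 log2 units in weaned replicates 4, 5 and 12, and 2.76, 2.99, 2.88 and 2.68 in suckling replicates 2, 9, 11 and 12. It was above that percentile on 1 of 7 arrays, weaned replicate 4. Its measured difference of 0.38 (SE 0.21, adjusted p = 0.721 by limma) changed with single mice: it was 0.11 when weaned replicate 4 was left out and 0.62 (unadjusted p = 0.0101) when weaned replicate 12 was, and it was 0.05 with the markers of duct, endothelial, stromal and blood cells as a covariate. Scd2, which is known as the isoform of brain and other tissues, was bright and even, at 9.16, 9.09 and 9.11 in the weaned mice and 9.05, 9.04, 9.30 and 8.96 in the suckling mice, in the same order. The Scd2 difference was 0.03 (SE 0.12, interval -0.23 to 0.29, adjusted p = 0.971 by limma), so a weaned level between 0.853 and 1.22 times the suckling level is allowed. Scd3 lay above the reference on all 7 arrays (3.95 to 4.73) and Scd4 on 0 of them (2.42 to 2.70).

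**Figure D3:**
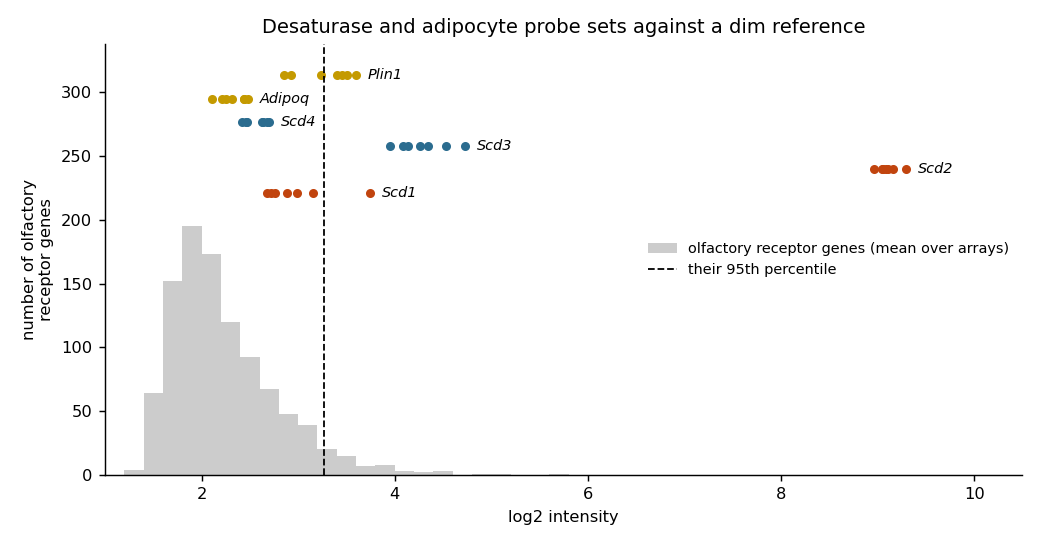
Levels of stearoyl-CoA desaturase and adipocyte genes (points, 1 per array, log2 intensity) above a histogram of the mean levels of 1015 olfactory receptor genes, with their 95th percentile of 3.27 as a dashed line. Scd2 lies near 9 on every array, while Scd1 lies left of the line on all arrays except weaned replicate 4, beside Scd4 and the adipocyte hormone gene Adipoq. The adipocyte marker Plin1 lies on both sides of the line.

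Fat cells express Scd1, Fasn and Acly strongly, and their markers were looked for on the same arrays. Adipoq, which encodes adiponectin, lay between 2.11 and 2.48 log2 units, and Lep, which encodes leptin, between 2.38 and 2.92. Of 9 adipocyte markers measured, 5 were below the dim reference on every array and 2 were above it on every array, Pparg and the lipase gene Lpl, which other cells express too. The list mean was 3.44 to 3.47 in weaned and 3.42 to 3.54 in suckling mice, so it varied little with group. RNA from few cells with a high level and from many with a low level cannot be told apart in these sorted pools.

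The desaturases of polyunsaturated fatty acids gave differences of opposite sign, neither of which passed, and that of Fads1 was 0.011 without weaned replicate 4. Fads2, the delta-6 desaturase and first of the pair to act, read 6.82, 6.20 and 6.66 log2 units in weaned replicates 4, 5 and 12, and 6.45, 5.82, 6.28 and 5.78 in suckling replicates 2, 9, 11 and 12. Mice of both groups were spread widely, and weaned replicate 5 lay below suckling replicates 2 and 11. The means were 6.56 ± 0.32 (SD, n = 3) and 6.09 ± 0.34 (SD, n = 4), with a difference of 0.48 (SE 0.21, interval 0.01 to 0.94, unadjusted p = 0.0462 and adjusted p = 0.651 by limma). The unadjusted p was above 0.05 when weaned replicate 4 (0.35) or 12 (0.43), or suckling replicate 9 (0.39) or 12 (0.37), was left out. With the acinar markers as a covariate the difference was 0.53 and its unadjusted p 0.0630. In the fit over all single-gene probe sets the unadjusted p was 0.0504 by limma. Fads1, the delta-5 desaturase that follows, read 7.74, 8.04 and 8.15 in the weaned mice and 8.07, 7.93, 7.98 and 8.36 in the suckling mice, in the same order, a difference of -0.11 (SE 0.15, interval -0.44 to 0.22, adjusted p = 0.900 by limma). The lowest Fads1 level belonged to weaned replicate 4 and the highest to suckling replicate 12, the mice with the highest and lowest Fads2 level. Over the 7 arrays the Pearson correlation of Fads1 and Fads2 was -0.496 (exact permutation p = 0.258). It was 0.917 without those 2 mice, so no steady opposite relation was shown.

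Srebf1, the regulator, was the most level of the 10. It read 7.19, 7.01 and 7.09 log2 units in weaned replicates 4, 5 and 12, and 7.19, 6.96, 7.29 and 6.96 in suckling replicates 2, 9, 11 and 12, and the weaned mice lay inside the suckling range. The difference was -0.0063 (SE 0.12, adjusted p = 0.995 by limma), with an interval that allows a weaned level between 0.821 and 1.21 times the suckling one. This is the transcript level, while SREBP-1 is controlled in large part by cleavage of the protein, which the arrays do not measure.

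The 10 genes showed no common pattern over the 7 arrays when both groups were pooled. Among their 45 pairs 23 had a positive and 22 a negative correlation over the 7 arrays, with a median Pearson r of 0.031. By exact permutation 3 pairs had an unadjusted p under 0.05, and 0 passed after Benjamini-Hochberg adjustment over the 45 pairs (lowest adjusted p = 0.333). Pooled values mix the group difference with variation between mice. Within groups r was highest for Fads2 and Srebf1 (0.890). For Acly and Scd1 it was 0.791 (-0.014 pooled), and for Acly and Acaca -0.127 (-0.698 pooled). The values within groups were not tested. Acaca and Fads2 had the highest value (r = 0.886, exact permutation p = 0.0113; Spearman rho = 0.821, exact permutation p = 0.0341), which was 0.820 without the 2 arrays farthest from the Acaca median. Scd2 and Srebf1 followed (r = 0.814, exact permutation p = 0.0157, and rho = 0.786, exact permutation p = 0.0480). Their r was 0.483 without the 2 arrays farthest from the Scd2 median and 0.828 within groups. Leaving out the extreme arrays narrows the range of Scd2, so the lower value cannot show whether the relation rests on them. Scd1 and Fads1 ran in opposite directions (r = -0.830, exact permutation p = 0.0222; rho = -0.893, exact permutation p = 0.0123), and r was -0.883 without the 2 farthest arrays, although Scd1 was near the dim reference. Srebf1 and Fasn, a regulator and its textbook target, had r = -0.462. Among 9968 genes with a mean above the median of all genes, those most like Fasn over the 7 arrays were Thra, which encodes a thyroid hormone receptor (r = 0.996), Casz1 (0.982), Slc29a1 (0.979), Cux1 (0.974) and Sf3b5 (0.973). Of those 9968 genes 70 had r above 0.9, and how many would reach it by chance with 7 arrays was not tested.

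**Figure D4:**
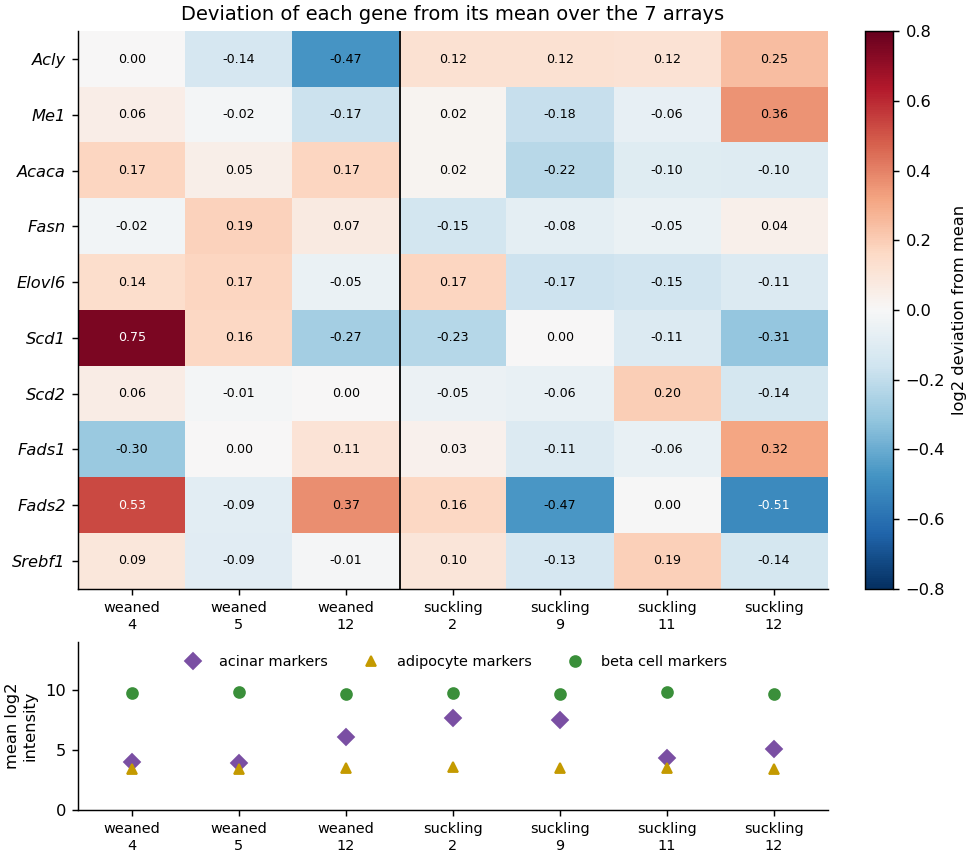
Top, deviation of each gene (rows) from its mean over the 7 arrays (columns, weaned left of the line) in log2 units. Bottom, mean log2 intensity of acinar, adipocyte and beta cell markers on the same arrays. No column is high or low throughout, and acinar signal is highest on suckling replicates 2 and 9 (7.71 and 7.52).

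Of regulators of lipogenic transcription other than Srebf1, 21 of 30 measured members were higher in weaned mice on average, beside 50.1% of all genes, with a median of 0.066, and none passed by limma. At an unadjusted p under 0.05, which 7.58% of all genes reached, there were 2 higher and 1 lower. These were Usf1, a basic helix-loop-helix factor that binds E-boxes (0.49, SE 0.19), Crtc2, a coactivator of CREB (0.29, SE 0.13), and Lpin1, a phosphatidate phosphatase that also acts on lipid gene transcription (-0.30, SE 0.13). Of the machinery around SREBP, its escort Scap differed by 0.18 (SE 0.10) and the retention factor Insig1 by 0.07 (SE 0.13). The other retention factor, Insig2, went the opposite way, by -0.30 (SE 0.15). The glucose-responsive factor gene Mlxipl, which encodes ChREBP, read 7.66 to 7.79 log2 units in weaned and 7.47 to 7.86 in suckling mice and differed by 0.06 (SE 0.12).

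Enzymes that supply citrate and NADPH showed 10 of 14 measured members higher in weaned mice, a median of 0.032 and none past either threshold. That was 8 of 14 and 0.012 with quantile normalization, and 11 of 14 and 0.066 with arrays centred on their medians. Centring added 0.0346 to the difference of every gene, and the median of all genes became 0.035. With quantile normalization that median was 0.0067. The smallest p values belonged to Me2, a mitochondrial malic enzyme (0.27, SE 0.13), and Slc25a10, the dicarboxylate carrier (0.32, SE 0.16). Other enzymes of fatty acid activation, elongation and desaturation had 13 of 30 higher, a median of -0.039 (-0.0043 with arrays centred on their medians) and 2 members at an unadjusted p under 0.05. These were Elovl4, an elongase of very long chains (0.60, SE 0.18, adjusted p = 0.535 by limma), and Fabp5, a fatty acid binding protein (0.46, SE 0.20). Elovl4 is dim, at 3.75 to 4.27 log2 units in weaned and 3.09 to 3.70 in suckling mice, so its suckling range reaches below the reference.

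Cholesterol synthesis genes, which SREBP-2 drives, had 13 of 18 measured members higher, beside 50.1% of all genes, and a median of 0.060. Only Tm7sf2, a sterol reductase (0.46, SE 0.16), had an unadjusted p under 0.05. The count and median were 11 of 18 and 0.045 with quantile normalization, and 13 of 18 and 0.094 with arrays centred on their medians. Glycerolipid and lipid droplet genes had 14 of 31 higher and a median of -0.023. With arrays centred on their medians it was 0.012, beside 0.035 for all genes. Of the 4 with an unadjusted p under 0.05, Agpat2, an acyltransferase on the way to triglyceride, was higher by 0.50 (SE 0.14, adjusted p = 0.511 by limma). Plin2, a coat protein of lipid droplets, was higher by 0.28 (SE 0.12), Lpin1 is given above, and Cidea lay below the dim reference on all arrays. Lipid efflux genes and other LXR targets had 4 of 8 higher and a median of -0.0011. With arrays centred on their medians it was 0.033, again beside 0.035 for all genes. Abca1, the cholesterol exporter, read 5.63 to 5.79 log2 units in weaned and 4.95 to 5.36 in suckling mice, without overlap, and was higher by 0.46 (SE 0.13, adjusted p = 0.518 by limma). Lpcat3, which places polyunsaturated chains into phospholipids, was also without overlap and higher by 0.31 (SE 0.11). In these 6 lists no gene passed by limma over all genes, and 11 of their 129 genes, or 8.53%, had an unadjusted p under 0.05, close to the 7.58% of all genes.

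**Figure D5:**
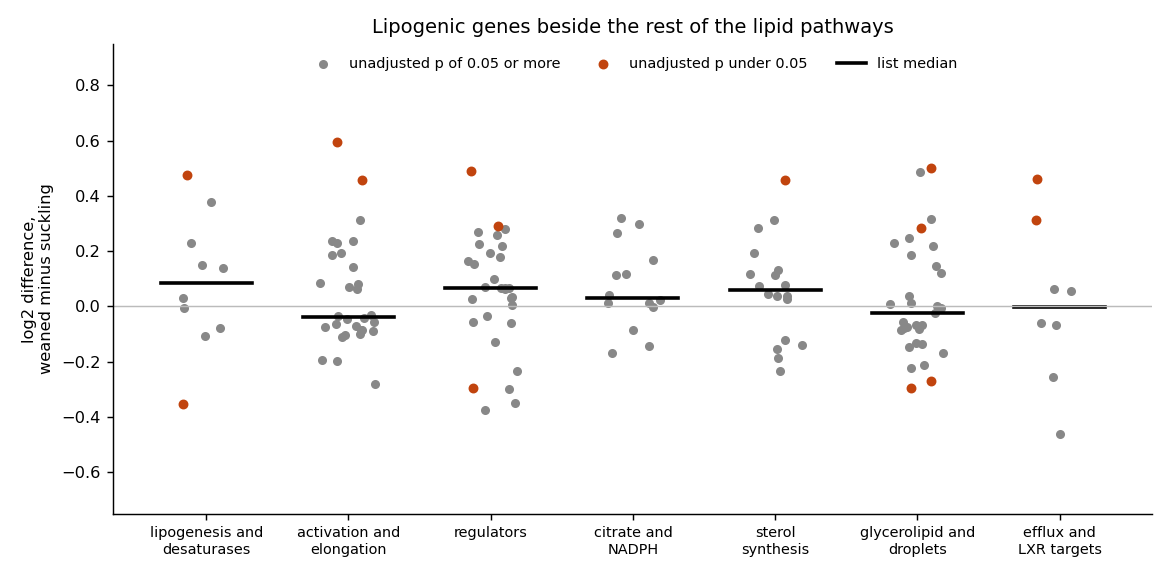
Log2 difference (weaned minus suckling) of each measured gene in the 10 lipogenesis and desaturase genes and in 6 lists of related lipid genes, with unadjusted p under 0.05 in orange and list medians as bars. The medians lie between -0.039 and 0.085, and the spread of the 10 genes (-0.35 to 0.48) falls within that of the regulators (-0.38 to 0.49).

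The size of these differences set against their error limits what can be said. Over the 10 genes the intervals reach at most 1.57-fold lower in weaned mice, for Acly, and 1.92-fold higher, for Fads2, so larger changes are outside the 95% intervals, except for Scd1, whose level near the dim reference sets no such bound. The number of members with an unadjusted p under 0.05 changed with single mice. It was 1 without weaned replicate 4 or without suckling replicate 9, Acly in each case, and 0 without suckling replicate 12. Without weaned replicate 12 neither Acly nor Fads2 was left and Scd1 was the 1 member counted. Without suckling replicate 2 it was 3, with Acaca added to Acly and Fads2.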

How the data were processed

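RNA of each mouse was amplified with the Ovation Pico kit and hybridised, per the labels' protocols. The deposited intensity values, 1 per probe set and array on a linear scale, were made by the authors with RMA and Partek 6.6, per the submitters' processing notes, which give no settings; log2 was taken here. RMA draws differences of dim probe sets towards 0. Of 35556 probe sets 21789 name 1 gene; symbols were updated by gene ID through a RefSeq table (GRCm38.p6, names only), and for the 999 genes with several probe sets the one with the highest mean stood for the gene, leaving 19938 genes. The array annotation names no build, so coordinates belong to the RefSeq promoters only. Groups were compared with limma 3.58.1 (lmFit, eBayes, R 4.3.3) on all genes, with no covariate or filter, two-sided, Benjamini-Hochberg adjusted at 0.05; the fit was tested on simulated data. Each mouse is a biological replicate, and the number of arrays limits the precision. Pair correlations used exact two-sided permutation, adjusted over 45 pairs.

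The 10 genes, 6 pathway lists and 5 marker lists (217 genes, 198 measured; the others were not analysed here) were chosen with earlier results of these data known. Every member is named, and of each pathway list up to 4 genes with an unadjusted p under 0.05 or else the 2 with the smallest p. Also named are relatives and regulators of the members and marker genes, chosen after their values were seen. These are Acacb, Scd3, Scd4, Scap, Insig1, Insig2, Mlxipl, Ucn3, Iapp, Ins2, Mafa, Gcg and Sst. The others are Ppy, Pyy, Ttr, Irx2, Hhex, Adipoq, Lep, Plin1, Cidec, Lpl and Pparg. Alternatives were quantile normalization, median centring, the mean of probe sets, an intensity trend with a robust prior, array weights, 2 filters on dim genes, 2 covariates, leaving out each array and, for the count of genes, a threshold of 0.1. A fit without suckling replicates 2 and 9, which had the highest acinar signal, was added with the data in view.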

Additional observations from a re-analysis of the deposited data

Results flagged for a closer look

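Within the 4 suckling mice, 2 of the 10 genes had an array that stood apart by Dixon's criterion, which chance meets in about 1 of 20 groups. For Acly it was suckling replicate 12 at 10.79 log2 units, next to 10.66, with a gap of 0.962 of the group's whole range; that range is small, and the gap is 0.13 log2 units wide. For Elovl6 it was suckling replicate 2 at 6.20, next to 5.92, with a gap of 0.831 of the range, just above the critical value of 0.829. Suckling replicate 2 also has the highest acinar signal, with a list mean of 7.71 log2 units. Suckling replicate 9, with a list mean of 7.52, had the lowest Elovl6 level of the 7 arrays (5.86). The part of acinar signal in the Elovl6 values was not tested. The Elovl6 difference was 0.23 without suckling replicate 2. Weaned groups of 3 arrays were too small for this criterion.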

How the results depend on the processing

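None of the 10 genes passed over all genes under any of 168 alternative values (lowest adjusted p = 0.419, limma), and 158 kept their direction. The exceptions were small. Scd2 (-0.013 to 0.10 with 1 array left out) was -0.021 with the acinar covariate, -0.013 without suckling replicate 12 and -0.011 without suckling replicates 2 and 9. With 1 array left out Fads1 ran from -0.19 to 0.011 (without weaned replicate 4), Me1 from -0.15 to 0.031 (without suckling replicate 12) and Srebf1 from -0.054 to 0.056. Srebf1 was 0.028 with arrays centred on their medians, a setting that adds 0.0346 to the difference of every gene. It was 0.046 with the other-cell covariate, and 0.037, 0.025 and 0.056 without weaned replicate 5, suckling replicate 2 and suckling replicate 11. The causes of the other reversals were not tested.

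Members with an unadjusted p under 0.05 numbered 2, but 1 with quantile normalization or the acinar covariate, 3 with median centring, the mean of probe sets or array weights (Acaca joining in each), 0 without suckling replicates 2 and 9, and 0 to 3 with 1 array left out. Genes past the threshold numbered 3, but 4 with array weights or the acinar covariate. There were 5 with quantile normalization or the mean of probe sets, 6 with median centring and 9 with an intensity trend and robust prior. There were 7 and 8 with dim genes below the 25th percentile or below the median left out, and 7 at an adjusted p of 0.1. Genes past the threshold numbered 0 without suckling replicates 2 and 9 (limma, fewer arrays) and 1 to 3 with 1 array left out. The filters removed Scd1 from the fit. The members' median moved by less than the spread between arrays under every alternative run, from 0.060 to 0.11 with 1 array left out. No paired analysis was possible because the groups share only the replicate number 12. Signal near the dim reference limits what can be said of Scd1.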
